A study of Caenorhabditis elegans with 6 samples.

Results

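Transcripts of glutathione transferases and of the enzymes that remove superoxide and peroxide were followed in whole young adult Caenorhabditis elegans. The members were all genes of the deposited table whose names mark them as glutathione transferases (gst, with the omega type gsto and the kappa type gstk), peroxiredoxins (prdx), superoxide dismutases (sod), catalases (ctl), thioredoxins (trx), thioredoxin reductases (trxr) or glutathione peroxidases (gpx). This gave 69 of the 16262 listed genes, of which 39 were gst, 3 gsto, 2 gstk, 3 prdx, 5 sod, 3 ctl, 4 trx, 2 trxr and 8 gpx genes. Ribosome-depleted RNA was sequenced from 3 libraries of worms that carry the knock-in LARP-1::APEX2 (allele yq637) and 3 libraries of worms that carry the knock-in LARP-1::GFP (allele yq636). LARP-1 is an RNA-binding protein, APEX2 an engineered peroxidase that needs H2O2 to attach biotin to nearby molecules, and GFP a fluorescent protein without that activity. Worms of both strains were cultured at 20 °C and took up biotin-aniline (3.3 mM) at 25 °C over 2 h. They were then given H2O2 (11 µl of a 100 mM stock, with a labelling volume of 950 µl) for 2 min before quenching. All 6 libraries therefore had H2O2, and without an untreated library its effect on these genes was not measured here. The comparison is between the strains, and culture, exact age and library preparation cannot be told apart from strain. The series design and the titles speak of immunoprecipitation, while the protocol in the labels describes total RNA and holds no pull-down step. Had one been done, "rose" and "fell" would describe the recovered fraction of RNA and not transcript levels in whole worms, and the files do not settle which. Nor do the labels tell if replicates came from separate cultures, and p-values then cover only the spread among these libraries, which may be technical.

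Glutathione transferases couple the thiol of glutathione to reactive compounds such as products of lipid oxidation, and the worm genome holds a large, partly tandem family of them. Superoxide dismutases turn superoxide into H2O2, which catalases, peroxiredoxins and glutathione peroxidases break down, and thioredoxin with its reductase returns peroxiredoxins to the reduced state. In worms many of these genes respond to the transcription factor SKN-1, the relative of mammalian Nrf proteins, in the intestine.

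Between 4067144 and 6414569 reads with APEX2 and between 3824041 and 4420681 with GFP lay on the listed genes, and the 69 genes took 0.384% to 0.389% of them with APEX2 and 0.377% to 0.399% with GFP. The values are gene read counts divided by a size factor for each library (normalized counts), so that 1 read was worth 0.692 to 1.18. The tagged gene larp-1 had 2826, 3022 and 2734 in the LARP-1::APEX2 libraries, against 2599.9, 2607 and 2557 in the LARP-1::GFP libraries, and its log2 difference of 0.14 ± 0.09 did not pass (limma adjusted p = 0.30). APEX2 replicate 1 stood apart from APEX2 replicates 2 and 3 on the second principal component, at 28.3 against -18.4 and -17.2. A difference is the mean with APEX2 minus that with GFP on the scale log2(normalized count + 1), given with its standard error. It comes from limma over the 10534 genes with a mean of at least 10, all of which entered the Benjamini-Hochberg adjustment, with a threshold of 0.05.

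Several glutathione transferases and the major peroxiredoxin were higher with APEX2, while the kappa type transferases, the mitochondrial superoxide dismutase sod-2, the catalase ctl-2, prdx-6 and trx-4 were lower. Of the 69 genes, 48 had a mean of at least 10 and were tested. Of these, 9 rose, 7 fell and 32 did not pass, or 18.8% and 14.6% of the tested members, where 11.6% of all tested genes rose and 10.1% fell. In either direction this was 33.3% of the tested members and 21.7% of all tested genes. The 3 APEX2 values lay above all GFP values in 11 of the 48 tested members and below them in 11 of the 48. Among all 10534 tested genes they lay above in 2093 (19.9%) and below in 1843 (17.5%). The members had a median difference of -0.02 and all tested genes one of 0.02. Over the other settings tried, the members' median lay between -0.07 and 0.03. By family, 7 of 27 tested gst genes rose and 1 fell, and 1 of 5 gpx genes rose. Of 3 prdx genes 1 rose and 1 fell. Both gstk genes, 1 of 3 sod genes, 1 of 3 trx genes and the tested ctl gene fell, and 0 of 2 gsto and 0 of 2 trxr genes passed. Families hold few genes, and a difference between families was not tested. The other 21 members had means of 0.630 to 9.58 and 4 to 58 reads over the 6 libraries, and were not tested. In whole worms, fewer cells of a tissue and less RNA per cell cannot be told apart.

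**Figure D1:**
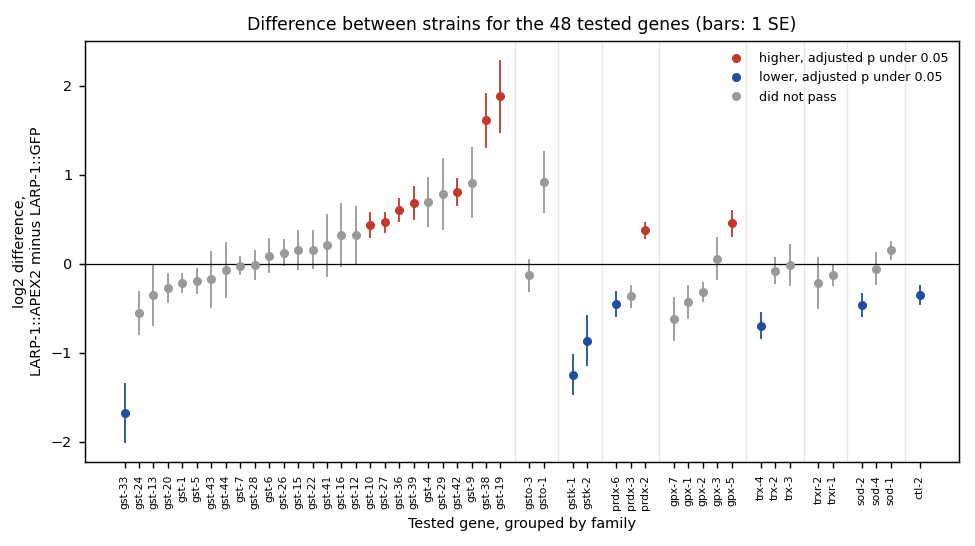
Log2 difference between LARP-1::APEX2 and LARP-1::GFP libraries for each of the 48 tested genes, grouped by family, with bars of 1 standard error (n = 3 per strain). The 9 genes that rose (red) are gst genes, prdx-2 and gpx-5, and the 7 that fell (blue) run from gst-33 at -1.68 to ctl-2 at -0.35.

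Levels were spread over several orders of magnitude, and a few genes held most of the transcripts of their family. Per kilobase of exons, prdx-2 was the highest member with a mean over the 6 libraries of 6899.9 normalized counts, followed by gst-1 at 3871, gst-7 at 2446 and sod-1 at 1367. The leading members of the other families were gpx-2 at 704, trx-2 at 579.8, ctl-2 at 418, gstk-1 at 145, gsto-3 at 109 and trxr-1 at 106 per kilobase. Together gst-1, gst-7 and prdx-2 held 57.6% to 60.1% of all normalized counts on the 69 genes with APEX2 and 54.8% to 55.9% with GFP. At the low end, 9 members had no read in at least 1 library, where 3 reads, the upper limit that a count of 0 allows, are worth 2.08 to 3.54 normalized counts (counting error only). Summed over the family, gst genes had 6972 ± 359 normalized counts with APEX2 and 6957 ± 304 with GFP (SD, n = 3 each), so the family total was nearly the same in both strains while single genes differed. The peroxiredoxin total was 6460 ± 424 with APEX2 and 5285 ± 204 with GFP, and the gstk total 82.0 ± 25.0 with APEX2 and 184 ± 30.0 with GFP.

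**Figure D2:**
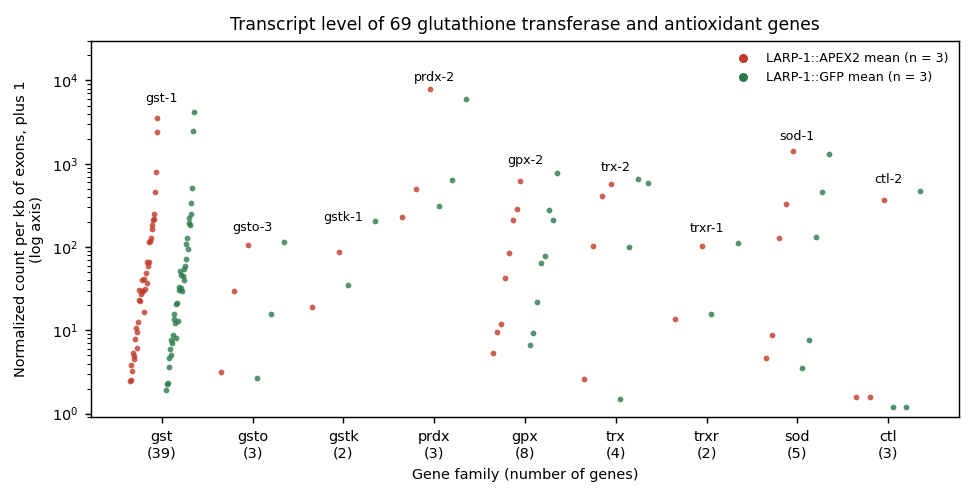
Mean normalized count per kilobase of exons, plus 1, on a log axis, for every one of the 69 genes in LARP-1::APEX2 (red) and LARP-1::GFP (green) worms, by family, with the leading gene of each family named. The gene prdx-2 stands highest, and ctl-1 and ctl-3 lie near the bottom.

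Among the glutathione transferases, gst-19 and gst-38 had the largest differences of the genes that rose. The gene gst-19 (WBGene00001767, chromosome II, 13625545 to 13627145, WBcel235 here and below) had normalized counts of 14.1, 22.4 and 22.8 in the LARP-1::APEX2 libraries, against 3.93, 3.36 and 6.85 in the LARP-1::GFP libraries. The groups did not overlap, the difference was 1.88 ± 0.41 (limma adjusted p = 0.0048), and the call rests on 82 reads in all. The gene gst-38 (WBGene00001786, chromosome V, 15915162 to 15916070), which is known as a target of SKN-1, had 25.9, 32.7 and 40.8 in the LARP-1::APEX2 libraries, against 8.84, 12.3 and 9.14 in the LARP-1::GFP libraries. All APEX2 values lay far above the GFP values, and the difference was 1.61 ± 0.31 (adjusted p = 0.0023). The gene gst-42 (WBGene00001790, chromosome X, 11726264 to 11727936) encodes the zeta type enzyme that acts in tyrosine breakdown as maleylacetoacetate isomerase. It had 181, 174 and 148 with APEX2, against 89.3, 99.7 and 97.1 with GFP, a difference of 0.80 ± 0.15 (adjusted p = 0.0022), again with no overlap. The calls of gst-19, gst-38 and gst-42 held without any 1 of the 6 libraries.

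The other gst genes that rose did so by less. The gene gst-39 (WBGene00001787, chromosome II, 15171163 to 15171916) had 84.8, 69.1 and 89.3 with APEX2, against 55.0, 49.3 and 45.7 with GFP, a difference of 0.68 ± 0.20 (limma adjusted p = 0.022). The gene gst-36 (WBGene00001784, chromosome X, 9861646 to 9862960) had 706, 535 and 542 with APEX2, against 378, 455 and 338 with GFP, a difference of 0.60 ± 0.14 (adjusted p = 0.0068), and its highest value was in APEX2 replicate 1. The gene gst-27 (WBGene00001775, chromosome II, 15164890 to 15165731) had 345, 346 and 340.4 with APEX2, against 252, 251 and 244 with GFP, a difference of 0.46 ± 0.11 (adjusted p = 0.0099). The gene gst-10 (WBGene00001758, chromosome V, 2561690 to 2564645), whose enzyme conjugates the lipid oxidation product hydroxynonenal, had 176, 174 and 181 with APEX2, against 136, 140.0 and 116 with GFP, a difference of 0.43 ± 0.14 (adjusted p = 0.045). In all 4 genes the groups did not overlap. Leaving out GFP replicate 3 ended the calls of gst-27 and gst-36 (adjusted p = 0.054 and 0.056). The call of gst-39 ended without APEX2 replicate 3 or GFP replicate 2 or 3 (highest 0.10) and that of gst-10 without any library other than APEX2 replicate 1 (highest 0.20). An exonic stretch of 93 nt, 12.3% of the gst-36 exons, lies opposite scav-5, which had 17.7, 11.2 and 24.2 with APEX2, against 8.84, 12.3 and 3.43 with GFP. How reads of that stretch were assigned is not given in the sources used here.

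One gst gene fell. The gene gst-33 (WBGene00001781, chromosome V, 3467451 to 3468562) had 14.1, 16.8 and 6.92 in the LARP-1::APEX2 libraries, against 37.3, 34.7 and 50.3 in the LARP-1::GFP libraries. The groups lay far apart, and the difference was -1.68 ± 0.34 (limma adjusted p = 0.0029), a call that held without any 1 library.

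The abundant gst genes did not pass. The gene gst-1, a pi type transferase, had 2902, 2308 and 2852 in the LARP-1::APEX2 libraries, against 2895, 3051 and 3386 in the LARP-1::GFP libraries, a difference of -0.22 ± 0.11 with a 95% interval of -0.45 to 0.02 (limma adjusted p = 0.19). Its share of the gst total was 39.3%, 34.4% and 41.7% with APEX2, against 43.6%, 43.7% and 46.7% with GFP. The gene gst-7 had 1935, 1945 and 1557 with APEX2, against 1736, 1866 and 1896 with GFP, with a difference of -0.02 ± 0.11 and an interval of -0.25 to 0.21 (adjusted p = 0.91). Both intervals leave room for a modest difference. The gene gst-4, widely used in worms as a reporter of SKN-1 activity, had 33.0, 54.1 and 53.97 with APEX2, against 27.5, 21.3 and 37.7 with GFP. Its difference of 0.69 ± 0.28 did not pass (adjusted p = 0.097), and GFP replicate 3 overlapped with APEX2 replicate 1. Without APEX2 replicate 1 gst-4 did pass, the only 1 of the other 19 settings in which it did. It shares 65 nt of exons, 8.89% of its own, with dhs-12 on the same strand, and dhs-12 fell, with 30.6, 51.3 and 59.5 with APEX2, against 79.5, 95.2 and 93.7 with GFP (difference -0.96 ± 0.24, adjusted p = 0.011). The 16 remaining tested gst genes that did not pass had differences between -0.55 (gst-24) and 0.91 (gst-9). Among them gst-5 and gst-24 had all APEX2 values below the GFP values and gst-29 all above.

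**Figure D3:**
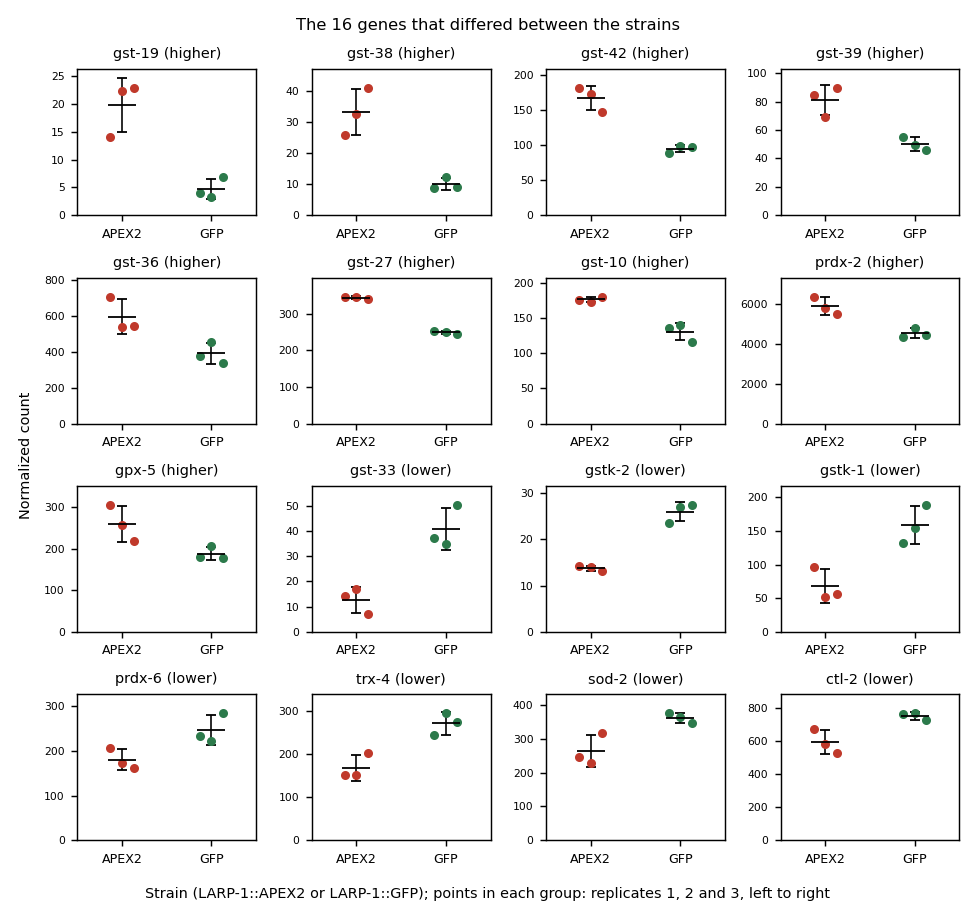
Normalized count in each library for the 16 genes with an adjusted p under 0.05, LARP-1::APEX2 left (red) and LARP-1::GFP right (green), with the mean and SD of 3 replicates as black marks and the linear axis starting at 0. In all 16 panels the groups do not overlap, which adds no support, because the test on these same libraries picked the genes.

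Neighbouring gst genes differed widely in level, and some passed the test while others did not; a difference in change between neighbours was not tested. With at most 10000 bp between neighbours, 27 of the 69 genes lay in 6 runs. In the run of 8 genes over 21.6 kb of chromosome II (15163817 to 15185389), means ran from 1.70 for gst-31 to 297 for gst-27, and gst-27 and gst-39 rose. Between those lie gst-28 and gst-29, with differences of -0.01 ± 0.17 and 0.78 ± 0.41 that did not pass (limma adjusted p = 0.97 and 0.20). In the run of 7 over 19.0 kb (13608154 to 13627145) means ran from 5.56 for gst-14 to 165 for gst-20. There gst-19, at the end of the run, rose, and the 5 other tested genes, from -0.55 (gst-24) to 0.32 (gst-12), did not pass. In the run of gst-6, gst-7, gst-8 and gst-9 the mean of gst-7 was 507 times that of gst-8, and 0 of its 3 tested genes passed. Similarity between the copies was not examined here, and near-identical ones may share reads, so the values of single genes in these runs are uncertain.

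**Figure D4:**
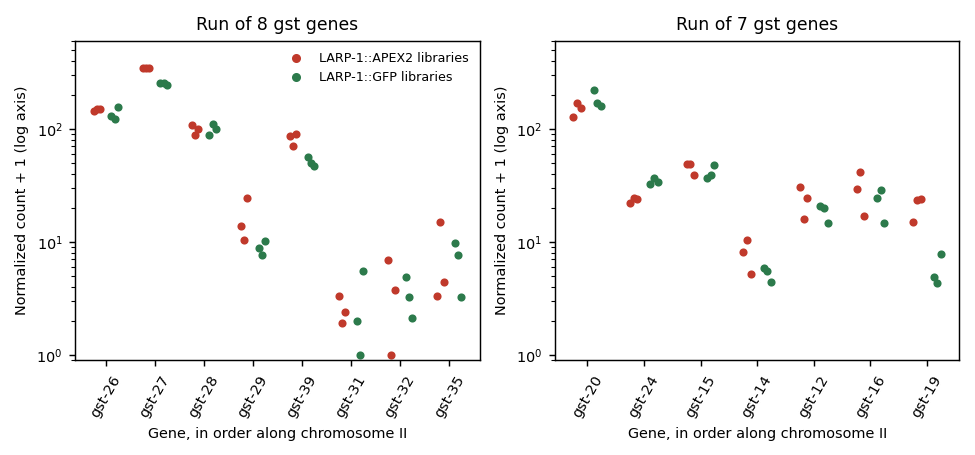
Normalized count plus 1, on a log axis, in each LARP-1::APEX2 (red) and LARP-1::GFP (green) library for the genes of the 2 longest runs, in their order along chromosome II. The points of the called genes gst-27, gst-39 and gst-19 separate by strain, as do those of gst-29 and gst-24, which did not pass.

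The kappa type transferases, enzymes of mitochondria and peroxisomes, were both lower with APEX2. The gene gstk-1 (WBGene00014251, chromosome II, 9656705 to 9657719) had 96.6, 51.3 and 56.7 in the LARP-1::APEX2 libraries, against 133, 155 and 188 in the LARP-1::GFP libraries. The difference was -1.25 ± 0.23 (limma adjusted p = 0.0016), with the least decrease in APEX2 replicate 1, and the call held without any 1 library. The gene gstk-2 (WBGene00017054, chromosome IV, 7240445 to 7242270) had 14.1, 14.0 and 13.1 with APEX2, against 23.6, 26.9 and 27.4 with GFP, a difference of -0.87 ± 0.29 (adjusted p = 0.042). Its call ended without any library other than APEX2 replicate 1 (highest adjusted p 0.15) and with correction for exonic length (0.054), while the difference lay at -0.93 to -0.83 without any 1 library. Of its exons 44 nt, or 5.81%, lie opposite elo-3, which rose by 0.40 ± 0.10, the other direction. The omega type genes did not pass. The gene gsto-3 had 119.02, 90.5 and 82.3 with APEX2, against 121, 97.5 and 99.4 with GFP (-0.13 ± 0.18, adjusted p = 0.66). The gene gsto-1 had 17.7, 29.9 and 22.1 with APEX2, against 16.7, 10.1 and 9.14 with GFP, which did not overlap but had a wide error (0.92 ± 0.35, adjusted p = 0.073).

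Among the peroxiredoxins the gene of the cytosolic enzyme rose and that of a second type fell, and in all 3 genes the groups did not overlap. The gene prdx-2 (WBGene00006434, chromosome II, 5378195 to 5379631), which encodes the main peroxiredoxin of the worm cytosol, had 6369, 5815 and 5491 in the LARP-1::APEX2 libraries, against 4352, 4808 and 4464 in the LARP-1::GFP libraries. It rose by 0.37 ± 0.10 (limma adjusted p = 0.013), with the highest value in APEX2 replicate 1, and the call ended without GFP replicate 1 or 3 (highest adjusted p 0.066). The gene prdx-3, of the mitochondrial enzyme, had 322, 444 and 397 with APEX2, against 498, 463 and 530.0 with GFP, and its difference of -0.37 ± 0.13 did not pass (adjusted p = 0.055). It passed in 6 of the other 19 settings, edgeR and quantile normalization among them. The gene prdx-6 (WBGene00021401, chromosome IV, 218552 to 220855), which encodes a peroxiredoxin of the type with a single catalytic cysteine, had 206, 173 and 163 with APEX2, against 234.66, 222 and 284 with GFP and fell, with -0.45 ± 0.15 (adjusted p = 0.041). This call ended without any library other than APEX2 replicate 1 (highest adjusted p 0.22) and with correction for exonic length (0.051). The ratio of prdx-2 to prdx-3 counts, chosen after their values were seen, was 19.8, 13.1 and 13.8 with APEX2, against 8.74, 10.4 and 8.42 with GFP.

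Of the superoxide dismutases, the mitochondrial manganese enzyme gene sod-2 (WBGene00004931, chromosome I, 8434550 to 8435807) fell. It had 247, 228 and 318 in the LARP-1::APEX2 libraries, against 376, 366 and 346 in the LARP-1::GFP libraries, a difference of -0.47 ± 0.14 (limma adjusted p = 0.024). Its call ended without APEX2 replicate 2 or any 1 GFP library (highest adjusted p 0.10), with differences of -0.61 to -0.37. The main cytosolic copper and zinc enzyme gene sod-1 had 932, 1089 and 1086 with APEX2, against 860.1, 1035 and 906 with GFP and the extracellular enzyme gene sod-4 had 225, 147 and 129 with APEX2, against 175, 173 and 159.9 with GFP. Neither passed, at 0.15 ± 0.11 (adjusted p = 0.36, 95% interval -0.08 to 0.38) and -0.06 ± 0.18 (adjusted p = 0.86). The ratio of sod-1 to sod-2, again chosen after the values were seen, was 3.77, 4.78 and 3.41 with APEX2, against 2.29, 2.83 and 2.62 with GFP. The inducible genes sod-3, of a second mitochondrial enzyme, and sod-5, of a minor cytosolic one, were near the limit of detection, with 1.18, 12.1 and 7.61 with APEX2, against 4.91, 6.72 and 5.71 with GFP for sod-3. In sod-4, 175 nt or 13.4% of the exons lie opposite ctr-9, and without a stated strand setting those reads cannot be told apart.

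Nearly all catalase reads were assigned to ctl-2, the gene of the peroxisomal catalase, which fell. The gene ctl-2 (WBGene00000831, chromosome II, 14299556 to 14302027) had 672, 580.4 and 529 in the LARP-1::APEX2 libraries, against 766, 767 and 726 in the LARP-1::GFP libraries, a difference of -0.35 ± 0.11 (limma adjusted p = 0.036). APEX2 replicate 1 was nearest to the GFP values, and the call ended without any library other than APEX2 replicate 1 (highest adjusted p 0.12), with differences of -0.44 to -0.27. The adjacent genes ctl-1, of the cytosolic catalase, and ctl-3 had 4 reads each, 3 of them in APEX2 replicate 2 and 1 in GFP replicate 1. The counts of ctl-1 and ctl-3 were equal in every library. The 3 genes lie within 11.2 kb and are known as close copies, so their values cannot be read as the level of each catalase, and how reads that match several copies were handled is not given in the sources used here.

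Glutathione peroxidases were led by gpx-2, with 802, 727 and 692 in the LARP-1::APEX2 libraries, against 797, 1019 and 959 in the LARP-1::GFP libraries. Its difference of -0.32 ± 0.11 did not pass (limma adjusted p = 0.062), and APEX2 replicate 1 lay just above GFP replicate 1. It passed in 8 of the other 19 settings, edgeR and DESeq2 among them. The gene gpx-5 (WBGene00007516, chromosome X, 9584668 to 9586344) rose, with 305, 257 and 218 with APEX2, against 181, 207 and 177 with GFP, a difference of 0.45 ± 0.15 (adjusted p = 0.041). That call ended without any library other than APEX2 replicate 3 (highest adjusted p 0.16), and gpx-3, its neighbour on chromosome X, had 93.1, 58.8 and 47.0 with APEX2, against 56.9, 69.4 and 58.2 with GFP (0.05 ± 0.24, adjusted p = 0.90). The gene gpx-7 had all APEX2 values below the GFP values, at 22.4, 35.5 and 33.9 with APEX2, against 49.1, 49.3 and 42.3 with GFP, without passing (-0.62 ± 0.25, adjusted p = 0.087). The gene gpx-1 did not pass either (-0.43 ± 0.19, adjusted p = 0.13), and gpx-4, gpx-6 and gpx-8 were too low to test.

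In the thioredoxin system trx-4 was lower with APEX2 and neither reductase passed. The gene trx-4 (WBGene00021548, chromosome I, 3317978 to 3318584) had 151, 150.2 and 203 in the LARP-1::APEX2 libraries, against 243, 295 and 275 in the LARP-1::GFP libraries, a difference of -0.70 ± 0.15 (limma adjusted p = 0.0048), and the call held without any 1 library. With only 410 nt of exons it is the shortest member, and corrected for exonic length its difference was -0.45 (adjusted p = 0.045). The gene of the mitochondrial thioredoxin, trx-2, had 245, 290.2 and 350.1 with APEX2, against 263, 336 and 331 with GFP (-0.08 ± 0.15, adjusted p = 0.75), and trx-3, of an intestinal thioredoxin, did not pass (-0.01 ± 0.24, adjusted p = 0.97). The neuronal trx-1 had 4 reads in all. The gene trxr-1, whose product is the cytosolic reductase and a selenoprotein, had 251, 291 and 268 with APEX2, against 306, 279 and 299 with GFP (-0.13 ± 0.12, 95% interval -0.39 to 0.13, adjusted p = 0.50), and trxr-2, of the mitochondrial reductase, had 15.3, 23.3 and 22.8 with APEX2, against 19.6, 28.0 and 24.0 with GFP (-0.22 ± 0.29, adjusted p = 0.64).

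Genes that feed and control these enzymes were read beside them from 4 lists. For comparison with the counts in each list, 11.6% of all tested genes rose and 10.1% fell. The lists were not tested as sets. Of 8 genes listed for the supply of NADPH, which glutathione and thioredoxin reductases consume, 4 rose, 1 fell and 3 did not pass, around a median difference of 0.48. The list includes the transketolase gene tkt-1 and the transaldolase gene tald-1, whose enzymes do not make NADPH themselves. The cytosolic isocitrate dehydrogenase gene idh-1 had 3582, 2832 and 2657 in the LARP-1::APEX2 libraries, against 1764, 2218 and 1949 in the LARP-1::GFP libraries (0.61 ± 0.12, limma adjusted p = 0.0032). The transaldolase gene tald-1 rose by 0.50 ± 0.11 (adjusted p = 0.0054), the malic enzyme gene men-1 by 0.50 ± 0.12 (0.0096) and T25B9.9 by 0.47 ± 0.10 (0.0036). The gene gspd-1, of glucose-6-phosphate dehydrogenase, did not pass (0.51 ± 0.18, adjusted p = 0.062). In the other direction nnt-1, of the mitochondrial transhydrogenase, had 3.54, 11.2 and 9.69 with APEX2, against 32.4, 22.4 and 24.0 with GFP and fell, with -1.68 ± 0.40 (adjusted p = 0.0088). Its APEX2 mean of 8.14 lay under the filter of 10, which it passed through its GFP values. Leaving out GFP replicate 3 ended the call of men-1 (adjusted p = 0.059), and leaving out GFP replicate 1 that of nnt-1 (0.058). Without trend or robust prior on the variances, idh-1, tald-1 and men-1 did not pass (adjusted p = 0.054, 0.057 and 0.060).

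Of 12 genes of glutathione synthesis, reduction and export, 1 rose, 1 fell and 10 did not pass, around a median of 0.07. The gene gcs-1, of the enzyme that sets the rate of glutathione synthesis, had 179, 198 and 212 with APEX2, against 186, 167 and 180.5 with GFP (0.14 ± 0.14, limma adjusted p = 0.51), with overlapping groups. The glutathione reductase gene gsr-1 had 806, 933 and 813 with APEX2, against 708, 731 and 758 with GFP, which did not overlap, and did not pass (0.21 ± 0.10, adjusted p = 0.16). The glutaredoxin genes glrx-3 and glrx-10 went opposite ways, at 0.34 ± 0.12 (adjusted p = 0.047) and -0.38 ± 0.11 (adjusted p = 0.027). The call of glrx-3 ended without any library other than APEX2 replicate 1 (highest adjusted p 0.18) and in 10 of the other 13 settings. Corrected for exonic length glrx-10 had a difference of -0.14 (adjusted p = 0.43), and its call also ended without APEX2 replicate 2 or any 1 GFP library (highest 0.12).

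Of 13 genes of SKN-1 and DAF-16 regulation, 2 rose, 2 fell and 9 did not pass, around a median of 0.07. The gene skn-1 itself had 813, 969.5 and 987 with APEX2, against 848, 706 and 644 with GFP and did not pass (0.34 ± 0.12, limma adjusted p = 0.061), although it did without APEX2 replicate 1 (0.010) or GFP replicate 1 (0.037). The kinase gene gsk-3, known to restrain SKN-1, rose by 0.58 ± 0.11 (adjusted p = 0.0016) and the heat shock factor gene hsf-1 by 0.45 ± 0.12 (0.018). The Mediator subunit gene mdt-15, known as a partner of SKN-1, had 90.7, 84.0 and 108 with APEX2, against 190.5, 223 and 216 with GFP and fell, with -1.15 ± 0.16 (adjusted p = 0.00021). The FOXO gene daf-16 fell as well, with -0.36 ± 0.11 (adjusted p = 0.028). The call of hsf-1 ended without GFP replicate 2 or 3 (highest adjusted p 0.092) and that of daf-16 without any library other than APEX2 replicate 1 (0.13). Of 11 tested genes of oxidant production, oxidative repair and iron storage, 0 rose, 1 fell and 10 did not pass, around a median of 0.03. That gene was the ferritin gene ftn-1, at 4.71, 6.53 and 6.92 with APEX2, against 11.8, 20.2 and 17.1 with GFP (-1.28 ± 0.39, adjusted p = 0.030), a call that ended without APEX2 replicate 1 or GFP replicate 3 (highest 0.12). All APEX2 values of ftn-1 lay under the filter of 10, which it passed through its GFP values.

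**Figure D5:**
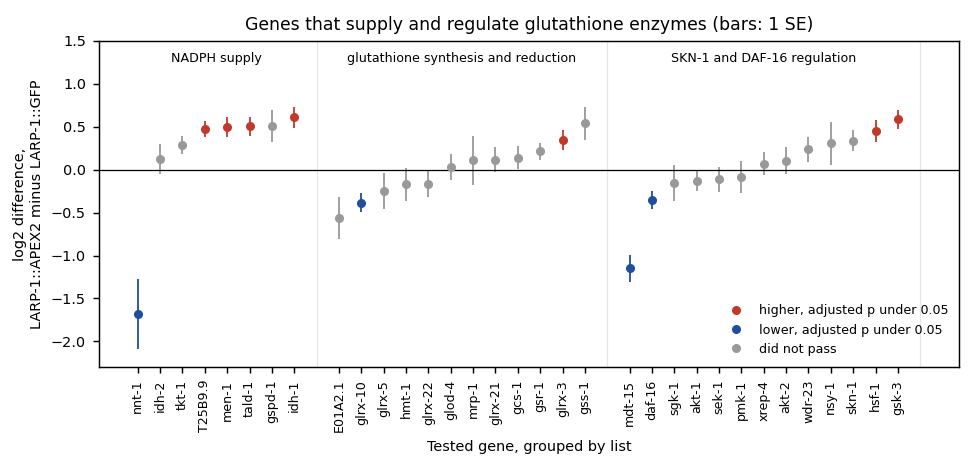
Log2 difference between LARP-1::APEX2 and LARP-1::GFP libraries, with bars of 1 standard error (n = 3 per strain), for the tested genes listed for NADPH supply, for glutathione synthesis and reduction and for SKN-1 and DAF-16 regulation. In the first list 4 genes (red) rose and nnt-1 fell, and in the other 2 lists most genes (grey) did not pass.

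Marker genes of the tissues of a worm also moved between the strains. The summed normalized counts of 7 intestine markers were 46139 to 62578 with APEX2 and 63124 to 69749 with GFP, and among them act-5 and vha-6 rose while asp-1 and cpr-1 fell. Most of the intestine sum was asp-1, at 39465 to 53256 with APEX2 and 55324 to 60957 with GFP. The 8 markers of oocytes and germ line summed to 24192 to 25607 with APEX2 and 20052 to 20585 with GFP, with 6 higher and 2 lower, and the 6 body muscle markers to 21327 to 25672 with APEX2 and 18501 to 21149 with GFP, with 2 higher and 1 lower. In body muscle lev-11 had 8309 to 9537 with APEX2 and 5376 to 6123 with GFP, while the abundant unc-54 overlapped between the strains. Each sum follows its most abundant genes and is no measure of a tissue. Hypodermis markers (6 listed, 1 higher) summed to 566 to 852 with APEX2 and 531 to 809.9 with GFP. The sums of 6 neuron markers were 1385 to 1405 with APEX2 and 1240.1 to 1292 with GFP, and those of 8 sperm markers 1116 to 1248 with APEX2 and 1240.4 to 1402 with GFP, with 0 markers of either list called. Most of the neuron sum was snb-1, at 1263 to 1279 with APEX2 and 1082 to 1156 with GFP. The other neuron markers overlapped between the strains. No marker was at 0 in all libraries, and the sperm genes spe-9 and spe-11 were at 0 in some. Short genes were lower with APEX2, and 27 of the 48 tested members had between 566 and 781 nt of exons, a range in which the median difference of all genes was -0.06. The part of tissue makeup in the differences above was not tested. Corrected for exonic length, 9 members rose and 6 fell, beside 1070 and 980 of all tested genes. With that correction gpx-2 passed as lower (limma adjusted p = 0.027), and gstk-2 and prdx-6 no longer passed.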

How the data were processed

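Whole worms with LARP-1::APEX2 or LARP-1::GFP were profiled in 3 libraries each. Per the submitters' processing notes, the tools were featureCounts, STAR, Bowtie, Trim Galore and DESeq2, on build ce11. For their settings, versions and strand handling the sources used here give nothing. The authors deposited 1 signal value per gene and library as normalized counts. Dividing each library by its smallest nonzero value turned 100% of its values into whole numbers (tolerance 0.001), which were taken as reads.

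Gene positions and exonic lengths came from Ensembl release 115 of WBcel235, the same assembly as ce11, and all 69 members matched. Coordinates are 1-based. Values were compared as log2(value + 1) with limma 3.58.1 in R 4.3.3 (trended and robust variance prior, no covariate) over the 10534 genes with a mean of at least 10, with the alternatives edgeR 4.0.16 and DESeq2 1.42.0 on the recovered reads. The fits were tested on simulated data. Values in every library are given for each member with an adjusted p under 0.05 and for the member with the highest level per kilobase in each family. Listed pathway genes are named where they passed, and gcs-1, gsr-1, skn-1 and larp-1 in any case. Other genes named (gst-4, gst-7 and those just outside the threshold among them) were chosen after their values were seen. The members and gene lists were chosen with earlier results of these data known. Other choices tried were the pseudocount, the filter, the scaling, the variance prior, a correction for exonic length, a replicate block and leaving out each library.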

Additional observations from a re-analysis of the deposited data

How the results depend on the processing

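The differences of the 16 called members kept their sign in every setting in which they were tested. The counts of 9 higher and 7 lower stayed within 1.5 times under both other pseudocounts (0.5 and 5), the other filters, all rescalings, edgeR and DESeq2, with 7 to 10 higher and 6 to 9 lower. The filters changed the number of members tested, from 48 to 69 with no filter and to 29 with a mean of at least 50. Under the latter gst-33, gst-38, gst-19 and gstk-2 were not tested. With equal library totals, 7 members were higher and 9 lower, beside 965 and 1219 of all tested genes. With edgeR 8 members were higher and 9 lower, beside 1121 and 1095 of all tested genes. In the main fit 1219 of all tested genes were higher and 1069 lower, so the counts of all genes shifted in the same direction. Without trend or robust prior, 5 members were higher, and 651 of all tested genes. Leaving out 1 library gave 3 to 10 members higher and 3 to 8 lower, and 612 to 1308 of all tested genes higher and 550 to 1192 lower. The calls of gst-19, gst-33, gst-38, gst-42 and gstk-1 held in every setting that tested them. Beyond single libraries and length, DESeq2 ended the calls of gst-10, gpx-5 and gstk-2, edgeR and TMM that of gst-10, equal totals those of gst-10 and gpx-5, quantile normalization that of gstk-2, no filter those of gst-10 and gstk-2, and the plain prior those of sod-2, gst-10, gpx-5, gst-36, prdx-2, ctl-2 and prdx-6. Among the listed partner genes, the plain prior also ended the calls of idh-1, tald-1, men-1, hsf-1, daf-16, glrx-3 and glrx-10, the block those of daf-16, glrx-3 and glrx-10, quantile normalization and DESeq2 that of ftn-1, and the block with the length correction those of hsf-1, ftn-1, glrx-3 and glrx-10. The cause was not tested.

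Same-numbered replicates did not deviate together (correlations of -0.16, -0.08 and 0.02), and differently numbered ones had correlations of -0.11 to 0.17. With 3 libraries per strain this cannot show if same-numbered libraries were prepared together. With the replicate block 7 members were higher and 4 lower, beside 984 and 883 of all tested genes. The calls of gst-10, gpx-5, ctl-2, prdx-6 and gstk-2 ended. With the block and the length correction 8 members were higher and 3 lower, beside 867 and 825 of all tested genes. There gst-9 passed as higher, and the calls of trx-4, sod-2, gst-10, gpx-5, prdx-6 and gstk-2 ended. At the recovered depth 21 members could not be tested, and PCR copies cannot be told from separate molecules.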
